A study of Rattus norvegicus with 12 samples.

Results

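The 10 genes described here belong to the integrated stress response and its transcription factor ATF4. They are the transcription factors Atf4, Atf5, Atf3 and Ddit3, the amino acid synthesis enzymes Asns, Psat1 and Phgdh, and the regulators and effectors Trib3, Chac1 and Ppp1r15a. They were picked out by gene symbol. Each symbol matched 1 gene of the deposited count table, so the 10 are drawn from 32883 genes, and all 10 are among the 14063 genes that passed the filter on low counts and were tested.

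The cells were primary ventricular cardiomyocytes from neonatal rats, kept in bulk culture and infected with adenovirus for 2 days. The 4 groups of 3 RNA-seq libraries differ in what the virus carried: LacZ (the bacterial beta-galactosidase, as the control), wild-type human KAT6A (WT), the KAT6A mutant K815R or the KAT6A mutant K815Q. KAT6A is a histone lysine acetyltransferase. Per the labels K815R resists acetylation at that lysine and K815Q mimics it. All 12 cultures received adenovirus, the rat's own Kat6a gene was present in every group, and none was left uninfected. Strain, sex and the number of animals behind a library are not given in the sources used here, so the p-values measure the spread between these libraries, which may be technical.

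The libraries held 19102048 to 25451686 counts on genes and 18037 to 18338 genes with a count. Levels are CPM (counts per 1000000 counts on tested genes), scaled by the trimmed mean of M-values, and 1 count was worth 0.0394 to 0.0521 CPM. Kat6a reads, in which the human transgene and the rat gene cannot be told apart, stood at 48.1 ± 4.75 CPM in LacZ (mean ± SD, n = 3 here and below), 93.0 ± 12.3 in WT, 108 ± 11.7 in K815R and 46.3 ± 3.35 in the K815Q group. The last value goes against its label, so these 3 are called the libraries labelled K815Q. Prkaa2, a catalytic subunit gene of the AMP-activated kinase, was 60.9 ± 10.2 CPM (LacZ), 519 ± 102 (WT), 87.2 ± 8.70 (K815R) and 1168 ± 55.4 (libraries labelled K815Q). It was called higher than LacZ in WT (8.51-fold; adjusted p = 2.51e-05) and in the libraries labelled K815Q (19.2-fold; adjusted p = 4.06e-06). Its part in the results below was not tested. Summed cardiomyocyte markers (11 genes, with Tnnt2, Myh6 and Actc1 among them) were 57229 to 61973 CPM in LacZ and 59116 to 66386 in the other 9 libraries, and fibroblast markers (10 genes) were 11903 to 12777 and 11048 to 12889. Macrophage markers (11 genes) summed to 72.6 to 89.3 CPM in LacZ and 88.5 to 99.1 in the others. Endothelial markers (8 genes) summed to 347 to 388 CPM in LacZ and 328 to 406 in the others, smooth muscle markers (8 genes) to 4041 to 4583 and 4048 to 4609, and blood cell markers (3 genes) to 7.99 to 11.2 and 4.75 to 8.60. No gene of these lists was at 0 in every library, and the part of these cell types in the results below was not tested. In bulk RNA, fewer cells of a type and less RNA per cell cannot be told apart.

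In the integrated stress response, kinases that sense misfolded protein, amino acid shortage, double-stranded RNA or haem shortage phosphorylate the translation initiation factor eIF2. Bulk protein synthesis then slows while the Atf4 mRNA is translated more, so that ATF4 protein can rise with little change of its transcript. ATF4 pairs with C/EBP-family partners on composite elements in its targets, which supply amino acids and, in lasting stress, drive cell death and a return to normal translation. In heart muscle this programme is known from mitochondrial disease and from hypertrophic growth.

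Promoters are shown first for the members that held a searched motif and for 3 of the other genes of the programme that held one and passed a test. Nars and Iars also held one, and their stretches are not shown. Nars was called in WT against LacZ, as given below, and Iars was called for any difference among the 4 groups. A promoter here is the window of 250 bases before to 50 after the start site in RefSeq, assembly GRCr8, matched by symbol. It is not the build the authors counted on, and no coordinate was carried between them. Of the 10 members 9 had an entry, and Atf3 had none. The core of the composite element was searched as TGATGNAA on both strands (TTNCATCA on the other), and the cyclic AMP response element as TGACGTCA, which is its own reverse complement. The first was present in 2 of the 9 members, Trib3 and Chac1, against 3.98% of all 33469 promoters. The second was present in 1 member, Ppp1r15a, against 1.83% of all promoters. Each stretch runs 5′ to 3′ on the gene's strand, and capitals mark the motif.
Trib3 (chr3:161275534-161275575, minus strand): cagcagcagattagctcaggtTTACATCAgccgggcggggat
Chac1 (chr3:126795943-126795992, plus strand): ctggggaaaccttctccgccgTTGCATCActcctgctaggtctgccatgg
Ppp1r15a (chr1:105139634-105139683, minus strand): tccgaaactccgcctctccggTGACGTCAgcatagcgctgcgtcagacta
Slc1a4 (chr14:98761769-98761812, minus strand): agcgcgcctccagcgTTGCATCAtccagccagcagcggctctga
Herpud1 (chr19:10614863-10614912, minus strand): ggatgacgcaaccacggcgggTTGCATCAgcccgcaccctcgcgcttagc
Jdp2 (chr6:110993554-110993590, plus strand): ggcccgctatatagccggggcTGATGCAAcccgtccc
The motif's first base lay 21 bases before the start in Trib3, 167 in Chac1, 66 in Ppp1r15a, 235 in Slc1a4, 184 in Herpud1 and 16 in Jdp2. Ppp1r15a is shown for the contrast of motif. It did not pass any test of the main fit, which used all 12 libraries and the filter on low counts. Beyond the members, genes with an entry were counted when any of their promoters held the composite core. These were 7 of 15 cytosolic aminoacyl-tRNA synthetases (5 of them in the shorter window of 250 bases before the start) and 2 of 8 amino acid transporters (9 promoters). They were 4 of 14 other stress outputs (16 promoters) and 2 of 10 other synthesis enzymes. The share of all promoters given above is counted per promoter. A match describes the letters and is not a bound site, and the windows without one say nothing of the factor.

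Atf4, the central factor, had a higher mean than LacZ in each of the other 3 groups, and its test was passed in the libraries labelled K815Q. In the LacZ libraries Atf4 (ENSRNOG00000017801) stood at 249.78, 237.80 and 231.71 CPM. In WT it stood at 267.74, 273.18 and 255.46 CPM, in K815R at 266.21, 251.50 and 259.70, and in the libraries labelled K815Q at 292.35, 269.75 and 282.82. All 9 of these lay above all 3 LacZ libraries. The log2 fold change against LacZ was 0.23 (SE 0.0492) for the libraries labelled K815Q, a rise of 17.5%, with an adjusted p of 0.00550. Throughout, tests are edgeR's quasi-likelihood tests, p-values are adjusted over all 14063 genes, and a gene is called when the adjusted p is under 0.05. For WT the difference was 0.15 (SE 0.0492; adjusted p = 0.0877) and for K815R 0.11 (adjusted p = 0.303), neither of them called. Over the mean of the 3 groups other than LacZ, Atf4 rose by 12.0% (log2 fold change 0.16, SE 0.0405; adjusted p = 0.0154). That mean call was lost without LacZ replicate 2 (adjusted p = 0.0989) or LacZ replicate 3 (0.125), and for the mean of WT and K815R alone (0.13; adjusted p = 0.107), whereas the call in the libraries labelled K815Q held without any 1 of the 12 libraries.

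The other transcription factors gave no called difference in any comparison of the main fit. Without the filter on low counts, Atf5 was called in the libraries labelled K815Q against LacZ (adjusted p = 0.0278) and against WT (0.0407). In that fit Atf5 was also called in K815R against the libraries labelled K815Q (0.0140). Atf3 was called there in the libraries labelled K815Q against WT (0.0249), and Ddit3 in K815R against LacZ (0.0334). Atf5, a relative of ATF4 that is also controlled in translation, was at 118 ± 10.4 CPM (LacZ), 118 ± 5.08 (WT), 115 ± 4.61 (K815R) and 134 ± 8.99 (libraries labelled K815Q). The last group lay above all WT and K815R libraries but overlapped with LacZ, where replicate 1 reached 129.29 CPM. Its difference there from LacZ was 0.18 (adjusted p = 0.0700), and it passed without LacZ replicate 1 (0.0159) or K815Q replicate 2 (0.0314). Atf3, a stress-induced repressor, was the most scattered member inside a group, at 11.75, 14.98 and 9.64 CPM in the libraries labelled K815Q. Its group means were 10.9 ± 1.34 CPM (LacZ), 9.36 ± 0.870 (WT), 10.9 ± 0.240 (K815R) and 12.1 ± 2.69 (libraries labelled K815Q). Atf3 in the libraries labelled K815Q differed from WT by 0.38 (adjusted p = 0.182), and passed without K815Q replicate 3 (0.0464). Ddit3 encodes CHOP, the factor linked to cell death in unresolved stress. It was 59.0 ± 5.35 CPM (LacZ), 58.0 ± 1.86 (WT), 51.2 ± 4.17 (K815R) and 52.3 ± 4.20 (libraries labelled K815Q). Its differences from LacZ were negative in the other 3 groups: -0.02 (adjusted p = 0.909), -0.20 (0.159) and -0.17 (0.138) on the log2 scale. In GRCr8 Atf3 overlaps Garin4, Atf5 overlaps Nup62 and Il4i1, and Ddit3 overlaps LOC134479709 and Mars1. Whether the counting used strand is not given in the sources used here, so the counts of Atf3, Atf5 and Ddit3 are less certain than those of the other 7.

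Of the amino acid enzymes Phgdh rose with WT and in the libraries labelled K815Q, and Psat1 and Asns gave no called difference. Phgdh catalyses the first step of serine synthesis from a glycolytic intermediate. It stood at 48.60, 44.03 and 47.87 CPM in LacZ and at 55.63, 60.10 and 55.93 in WT. In K815R it stood at 48.68, 46.59 and 48.91, and in the libraries labelled K815Q at 61.65, 52.05 and 58.46. WT and the libraries labelled K815Q lay wholly above LacZ and K815R, while K815R overlapped with LacZ. Phgdh rose by 22.1% in WT (log2 fold change 0.29, SE 0.0629; adjusted p = 0.00688) and by 22.5% where the label was K815Q (0.29, SE 0.0630; adjusted p = 0.00631). In K815R the difference from LacZ was 0.04, with a 95% confidence interval of -0.09 to 0.17 (adjusted p = 0.868). The WT call was lost without LacZ replicate 2 (adjusted p = 0.0599) or WT replicate 2 (0.0585), and the other without K815Q replicate 1 (0.0658). Over the mean of the 3 groups Phgdh rose by 15.3% (adjusted p = 0.0173), a call lost without LacZ replicate 2 (0.164) or 3 (0.0512) and for the mean of WT and K815R alone (0.16; adjusted p = 0.0798).

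Psat1, which carries out the next, transaminating step of serine synthesis, was 26.6 ± 1.50 CPM (LacZ), 31.0 ± 1.41 (WT), 28.2 ± 0.969 (K815R) and 30.1 ± 2.13 (libraries labelled K815Q). All WT libraries lay above all LacZ libraries, but the difference of 0.22 (SE 0.0685) was not called (adjusted p = 0.0600), and it passed without LacZ replicate 1 (0.0445) or K815Q replicate 2 (0.0466). Asns, asparagine synthetase and a standard reporter of ATF4 activity, varied least. It stood at 59.41, 53.48 and 60.24 CPM with LacZ, 63.13, 63.31 and 58.54 with WT, 57.69, 57.27 and 58.94 with K815R, and 63.52, 60.02 and 61.95 where the label was K815Q. Its highest library was 1.19 times its lowest, the narrowest range of the 10 members. WT against LacZ differed by 0.09 (95% confidence interval -0.02 to 0.21; adjusted p = 0.382), and 0.10 was the difference where the label was K815Q (adjusted p = 0.285).

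Of the regulators and effectors, Trib3 was called higher in the libraries labelled K815Q and Chac1 in WT. Trib3 encodes a pseudokinase that feeds back on ATF4 and binds AKT. It stood at 21.20, 18.32 and 18.85 CPM in LacZ and at 28.23, 25.54 and 26.16 in the libraries labelled K815Q. WT gave 24.44, 20.10 and 22.33 CPM and K815R 21.12, 20.06 and 22.61, both overlapping with LacZ. In the libraries labelled K815Q, which lay above all 9 others, Trib3 rose by 36.9% over LacZ (log2 fold change 0.45, SE 0.0803; adjusted p = 0.00113), and the call held without any 1 of the 12 libraries. The differences of WT, 0.20 (adjusted p = 0.177), and K815R, 0.13 (adjusted p = 0.533), were not called. Over the mean of the 3 groups Trib3 rose by 19.6% (adjusted p = 0.0197), a call lost without LacZ replicate 2 (0.153) or 3 (0.123) and for the mean of WT and K815R alone (0.16; adjusted p = 0.247).

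Chac1 encodes an enzyme that degrades glutathione and is a late output of the pathway. It stood at 14.66, 10.92 and 12.91 CPM with LacZ, 19.78, 15.50 and 20.81 with WT, 14.17, 15.57 and 18.16 with K815R, and 20.07, 16.15 and 15.89 where the label was K815Q. WT and the libraries labelled K815Q lay above all LacZ libraries, and K815R overlapped with LacZ. The rise in WT was 45.7% (log2 fold change 0.54, SE 0.135; adjusted p = 0.0292), the largest of any member in any comparison. It was not called when LacZ replicate 2, LacZ replicate 3, WT replicate 1, WT replicate 3 or K815R replicate 2 was left out (adjusted p = 0.104, 0.105, 0.0975, 0.109 and 0.0523). The libraries labelled K815Q differed from LacZ by 0.43 (SE 0.137; adjusted p = 0.0660), which DESeq2 called (0.0211). Over the mean of the 3 groups Chac1 rose by 34.8% (adjusted p = 0.0336), a call lost without LacZ replicate 2 (0.172), LacZ replicate 3 (0.154) or WT replicate 1 (0.0551). The mean of WT and K815R alone was called for Chac1 (34.7%; adjusted p = 0.0448). Ppp1r15a encodes GADD34, which brings a phosphatase to eIF2 and restores translation. It was 64.0 ± 3.82 CPM (LacZ), 66.7 ± 4.07 (WT), 71.1 ± 2.71 (K815R) and 72.7 ± 6.31 (libraries labelled K815Q). None of its differences was called in the main fit, and that of 0.18 in the last group (adjusted p = 0.0787) was the largest against LacZ. That difference passed without LacZ replicate 1 (0.0432) or K815Q replicate 1 (0.0383), and without the filter on low counts (0.0420).

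**Figure D1:**
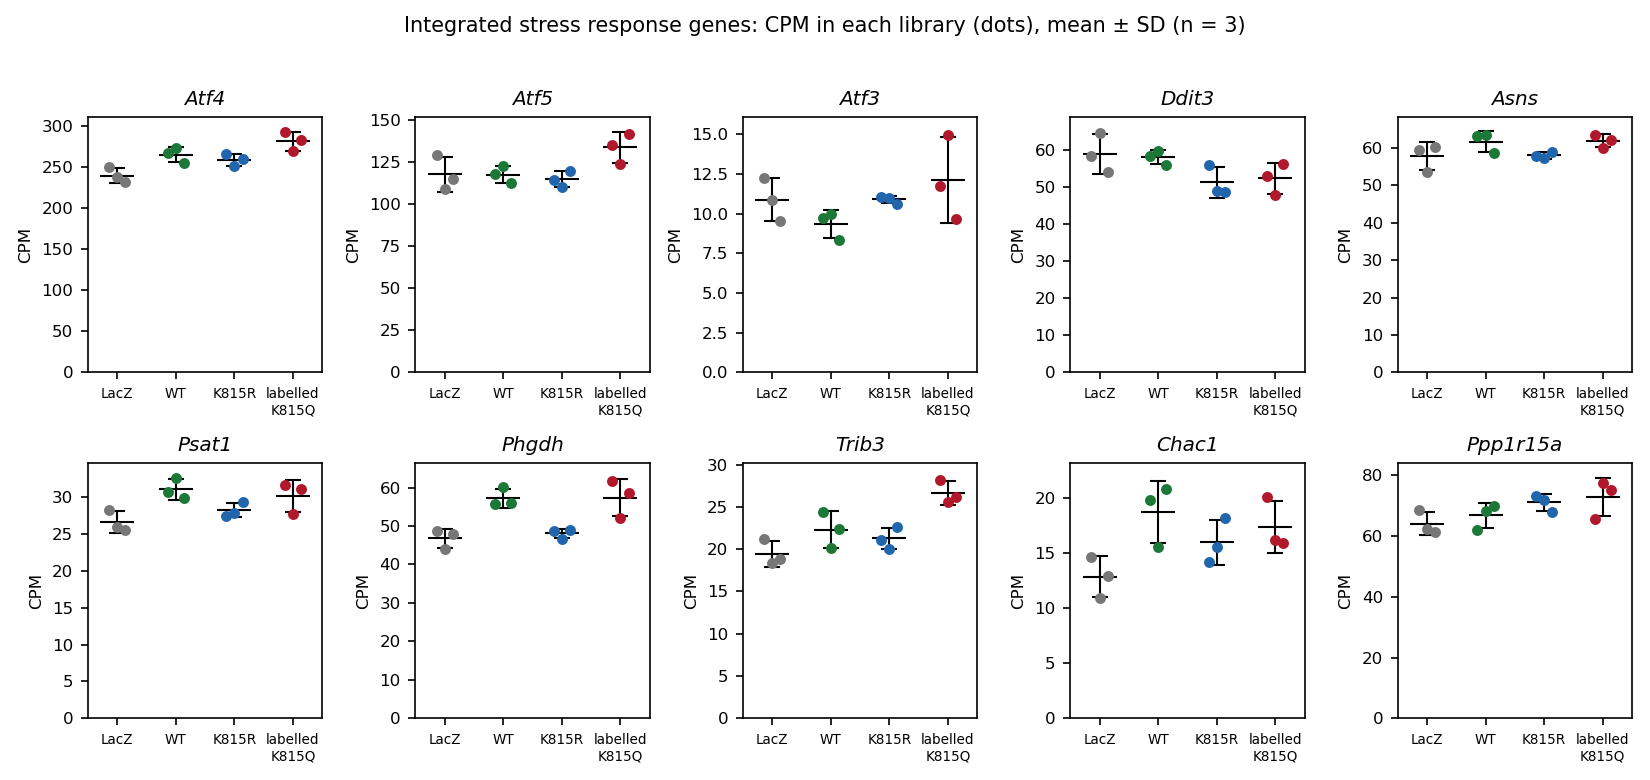
CPM of each of the 10 members in each library (points) with the group mean and SD (n = 3), 1 panel a gene, groups LacZ, WT, K815R and K815Q from left to right. In the Phgdh panel WT and K815Q sit above LacZ and K815R, and in the Trib3 panel K815Q sits above all other libraries.

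Counted by comparison with LacZ, 2 of the 10 members were called in WT (Phgdh and Chac1), both higher, where 5.34% of all tested genes were called and 1.95% were called higher. In the libraries labelled K815Q 3 members were called (Atf4, Phgdh and Trib3), all higher, against 7.85% of all genes called and 2.87% called higher. In K815R no member was called by edgeR in the main fit or by DESeq2, where 2.47% of all genes were called by edgeR. An unadjusted p under 0.05 was reached there by 4 members and by 1938 of all 14063 tested genes. The members' median log2 fold change was 0.12 (WT), 0.06 (K815R) and 0.18 (libraries labelled K815Q), where the median of all tested genes was 0.01, 0.00 and 0.01. These 3 comparisons share the same LacZ libraries and are not independent of each other. Over the mean of the 3 groups 4 members were called, all higher, against 6.66% of all genes called and 2.35% called higher. With the libraries labelled K815Q left out of the fit, a choice made after seeing the data, the mean of WT and K815R gave 1 called member, Chac1, against 4.06% of all genes. Across the 4 groups without a direction, 3 members differed (Atf4, adjusted p = 0.0224; Phgdh, 0.00281; Trib3, 0.00436), against 8.13% of all genes. Among LacZ, WT and K815R alone these were 2, Phgdh (0.00628) and Chac1 (0.0480), against 6.07%.

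**Figure D2:**
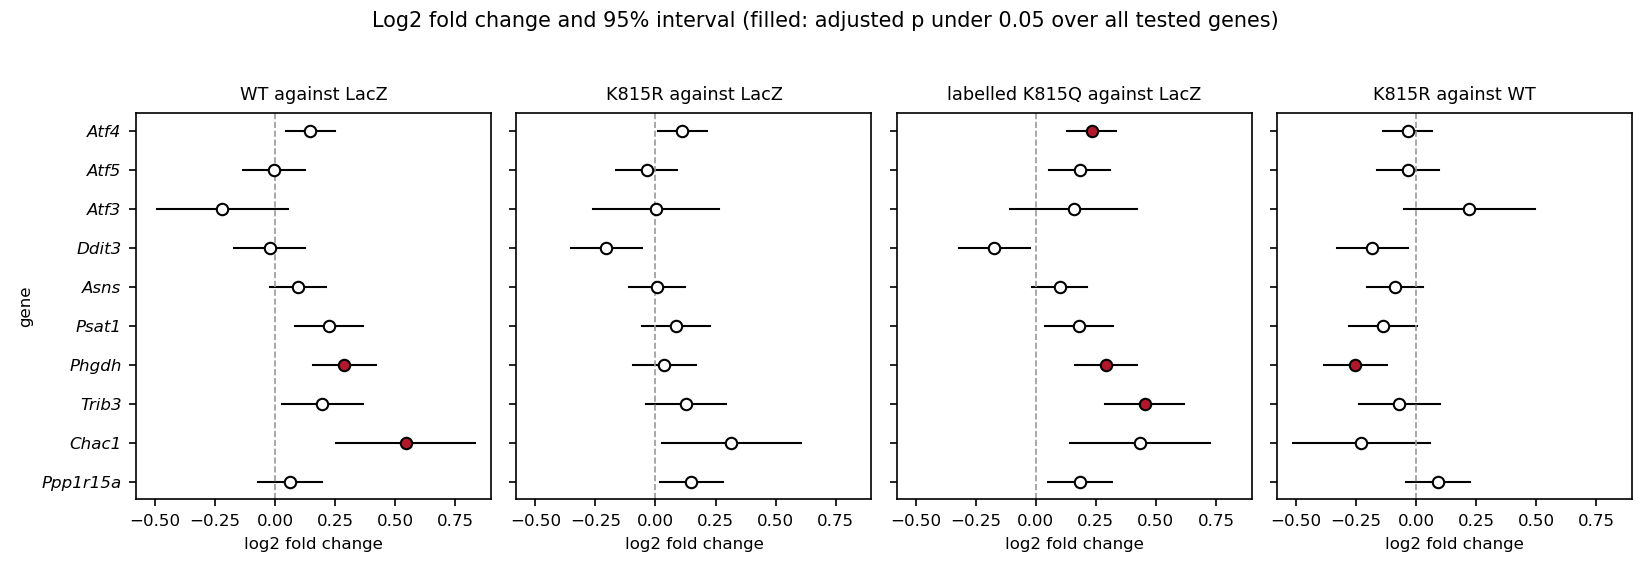
Log2 fold change of each member (points) with its 95% confidence interval (bars) by comparison, filled where the adjusted p was under 0.05. Phgdh is filled for WT and for K815Q against LacZ, and its K815R interval spans 0.

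WT and K815R, the groups whose Kat6a counts were raised, were compared directly. Phgdh was lower in K815R than in WT, by -0.25 on the log2 scale (SE 0.0630, 95% confidence interval -0.38 to -0.12; adjusted p = 0.0369). It was the 1 member called of 10, where 2.20% of all genes were called and 0.882% were called lower. That call was lost on leaving out any WT library (adjusted p = 0.0731, 0.174 and 0.0763 for replicates 1 to 3) or any K815R library (0.0853, 0.110 and 0.0903). The members' median difference was -0.08, and 8 of 10 were negative, where 7176 of all 14063 tested genes were negative. The libraries labelled K815Q, whose Kat6a counts were at the LacZ level, gave no called member against WT by edgeR in the main fit or by DESeq2. In that comparison 1.07% of all genes were called by edgeR. Of the members 3 had an unadjusted p under 0.05 there, as had 2019 of all 14063 tested genes. Phgdh differed there by 0.00, with a 95% confidence interval of -0.13 to 0.13, and Trib3 by 0.26 (adjusted p = 0.129). K815R against the libraries labelled K815Q gave no called member by edgeR in the main fit or by DESeq2. Of all genes 0.363% were called by edgeR there. An unadjusted p under 0.05 was found in that comparison for 4 members and for 1598 of all 14063 tested genes. All 10 differences were negative there, with a median of -0.12, where 7065 of all 14063 tested genes were negative. The members are measured in the same libraries and many of them vary together, so their signs are not independent. The largest was Trib3 at -0.33 (SE 0.0802; adjusted p = 0.0736), whose libraries did not overlap between the groups. Phgdh followed at -0.26 (adjusted p = 0.0744), also without overlap, and passed without K815Q replicate 2 (0.0174).

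Across the 12 libraries the members did not all vary together. The highest library was 1.91 times the lowest for Chac1, 1.79 for Atf3, 1.54 for Trib3, 1.40 for Phgdh and 1.35 for Ddit3. Of the 45 pairs of members 20 had a Pearson r of log2 CPM over 0.5 and 11 had one under 0, with a median of 0.36, or 0.25 for deviations from the group means. Psat1 and Phgdh, consecutive enzymes of serine synthesis, were the closest pair (r = 0.89, and 0.80 within groups). Asns and Phgdh followed (0.85, and 0.72 within groups), while Atf4 and Trib3 were close over all libraries (0.84) and less so within groups (0.40). Ddit3 ran opposite to Ppp1r15a (-0.47) and Atf3 (-0.39). Most like Atf4 in pattern over the 12 libraries were Siva1 (r = 0.955), Eif1 (0.945), Sertad1 (0.944), C1qtnf5 (0.943) and Lgals3 (0.942). For Asns they were Mief1 (0.928), Tsc22d3 (0.909), LOC681367 (0.888), Nsmf (0.884) and Srsf3 (0.875). For the members' mean they were Slc3a2 (0.945), Tmem119 (0.937), C1qtnf5 (0.930), Herpud1 (0.926) and Lgals3 (0.925). These are descriptions over libraries that share their groups and their processing.

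Upstream, the kinases that phosphorylate eIF2 differed in 1 gene. Eif2ak2 encodes PKR, the kinase activated by double-stranded RNA. It stood at 93.9, 120 and 104 CPM with LacZ, 62.7, 48.5 and 47.2 with WT, 63.9, 56.8 and 55.8 with K815R, and 46.42, 49.97 and 49.86 where the label was K815Q. All 9 libraries of the other groups lay below all LacZ libraries. Eif2ak2 fell by 1.00 on the log2 scale in WT (SE 0.113; adjusted p = 3.69e-04), by 0.85 in K815R (SE 0.111; adjusted p = 0.00207) and by 1.12 where the label was K815Q (SE 0.114; adjusted p = 1.71e-04). Eif2ak2 is also an interferon-stimulated gene. The 21 tested genes of the type I interferon list were all lower in WT, with a median of -2.12, and their summed level was 754 to 1148 CPM in LacZ, 215 to 343 in WT, 306 to 386 in K815R and 200 to 240 in the libraries labelled K815Q. Their part in the Eif2ak2 result was not tested.

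The other kinases had no called difference. Eif2ak1 (HRI, the haem-regulated kinase) was 61.0 ± 0.315 CPM (LacZ), 62.3 ± 1.41 (WT), 58.1 ± 1.30 (K815R) and 60.3 ± 3.49 (libraries labelled K815Q). Eif2ak3 (PERK, of the endoplasmic reticulum) was 18.6 ± 1.14, 17.9 ± 0.670, 18.2 ± 0.781 and 17.6 ± 1.19 CPM in the same order. Eif2ak4 (GCN2, the sensor of uncharged tRNA) was 22.0 ± 1.06, 23.3 ± 0.588, 22.9 ± 1.32 and 23.5 ± 1.99 CPM. Of the 19 tested genes of the list of kinases, phosphatase subunits and eIF2B subunits, Eif2ak2 was the 1 called in each comparison with LacZ. Over all tested genes the share called was 5.34% (WT), 2.47% (K815R) and 7.85% (libraries labelled K815Q). Transcript levels say nothing of the kinases' activity, which was not measured here.

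**Figure D3:**
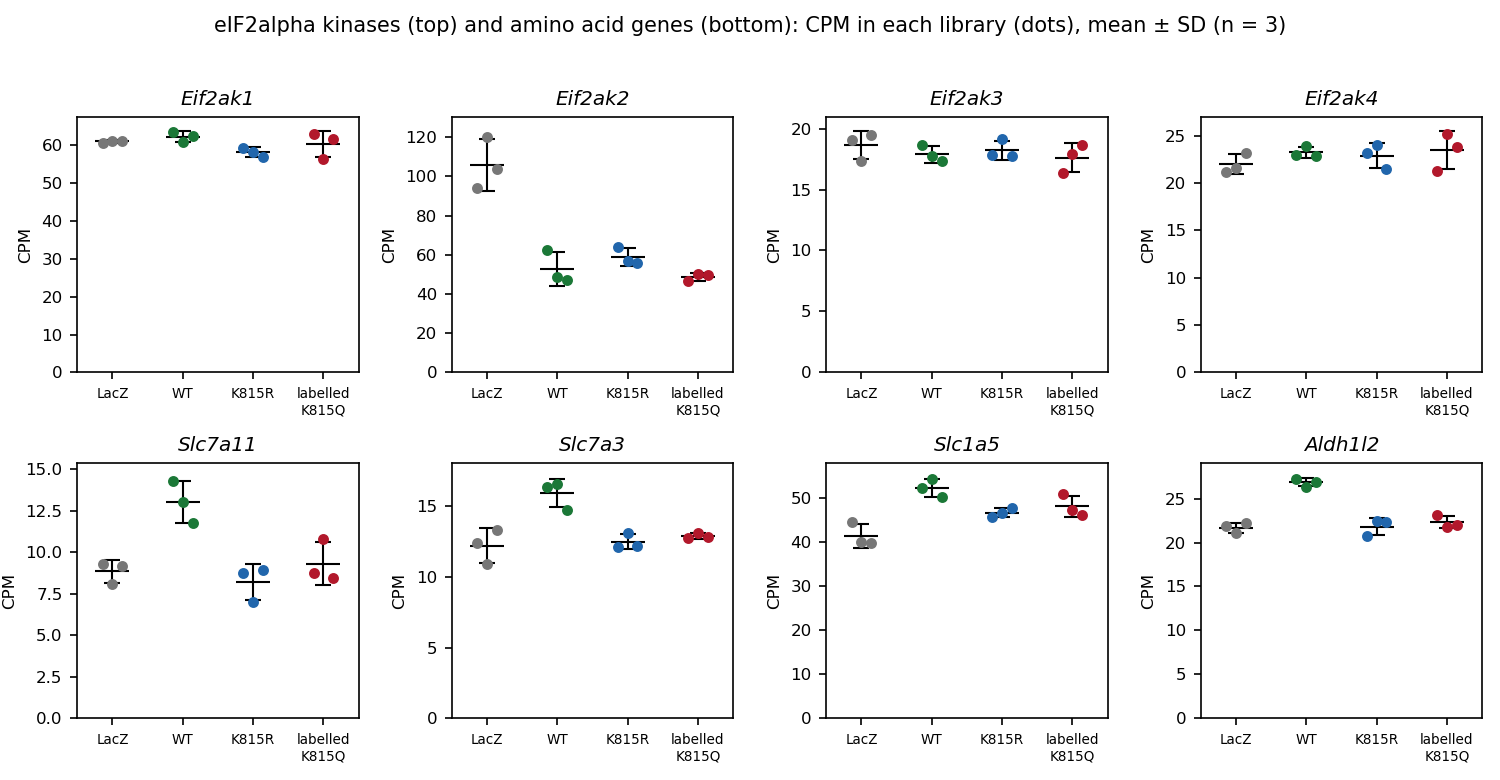
CPM by library (points) with group mean and SD (n = 3) for eIF2 kinases and for transporters and enzymes of the ATF4 programme. Eif2ak2 is lower in all 9 other libraries than in LacZ, and Slc7a11 is high in the 3 WT libraries.

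The wider programme was described with lists of genes related to ATF4. Of 10 tested amino acid transporters, 4 were higher in WT than in LacZ (Slc7a11, Slc7a3, Slc1a4 and Slc1a5) and 1 was higher in the libraries labelled K815Q, Slc1a5 (0.22; adjusted p = 0.0311). Of all tested genes 5.34% were called in WT, 1.95% of them higher as a share of all. In the libraries labelled K815Q these shares were 7.85% and 2.87%. The Slc1a5 call in the libraries labelled K815Q was lost without LacZ replicate 2 (0.121) or 3 (0.133), without K815Q replicate 1 (0.171) and in a fit of the compared libraries alone (0.0523). In K815R 0 transporters were called by edgeR or DESeq2, where 2.47% of all genes were called by edgeR. There 1 transporter had an unadjusted p under 0.05, as had 1938 of all 14063 tested genes. The list's median was 0.18 in WT and 0.04 in K815R. Slc7a11 encodes the cystine-glutamate exchanger that supplies cystine for glutathione. It stood at 9.30, 8.07 and 9.18 CPM with LacZ, 14.2, 13.0 and 11.7 with WT, 8.76, 6.98 and 8.90 with K815R, and 8.73, 10.8 and 8.44 where the label was K815Q. The WT libraries lay above all 9 others. Slc7a11 rose in WT over LacZ (log2 fold change 0.55, SE 0.112; adjusted p = 0.00392) and was lower in K815R than in WT (-0.67, SE 0.114; adjusted p = 0.00248). Both calls held without any 1 of the 12 libraries. Against WT the libraries labelled K815Q were lower by -0.48 (adjusted p = 0.0385), a call lost without WT replicate 1 (0.163), 2 (0.0903) or 3 (0.0509), or K815Q replicate 1 (0.199) or 3 (0.148). Slc1a5, a glutamine carrier, rose from 41.3 ± 2.70 CPM in LacZ to 52.3 ± 2.04 in WT (log2 fold change 0.34; adjusted p = 0.00121). Slc1a4, named for its promoter after its values were seen, rose from 51.5 ± 1.50 to 60.8 ± 1.56 CPM (0.24; adjusted p = 0.0115), a call lost without LacZ replicate 2 (0.0714) or WT replicate 3 (0.0545). Slc7a3, a carrier of cationic amino acids, was 12.2 ± 1.23 CPM (LacZ), 15.9 ± 0.991 (WT), 12.5 ± 0.543 (K815R) and 12.9 ± 0.185 (libraries labelled K815Q). It rose by 29.9% in WT (adjusted p = 0.00944), a call lost without LacZ replicate 2 (0.0760) or WT replicate 2 (0.0582). It was lower in K815R than in WT by -0.35 (adjusted p = 0.0367), a call lost without WT replicate 1 (0.121) or 2 (0.139), without K815R replicate 1 (0.125), 2 (0.0544) or 3 (0.126), with DESeq2 (0.0636), and with the libraries labelled K815Q left out of the fit (0.0524).

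Among the 11 tested genes of other serine, one-carbon and amino acid synthesis, 2 were called higher in WT, Aldh1l2 and Mthfd1l, both enzymes of mitochondrial folate metabolism. Of all tested genes 1.95% were called higher there. Mthfd1l (0.24; adjusted p = 0.0386) was not called without any 1 LacZ library (0.132, 0.0816 and 0.0735), any 1 WT library (0.0975, 0.0750 and 0.115) or K815R replicate 3 (0.0517), nor by DESeq2 (0.103). Aldh1l2 was 21.7 ± 0.582 CPM (LacZ), 26.9 ± 0.468 (WT), 21.8 ± 0.957 (K815R) and 22.3 ± 0.716 (libraries labelled K815Q). It rose in WT over LacZ (log2 fold change 0.31, SE 0.0644; adjusted p = 0.00482) and was lower in K815R than in WT (-0.30; adjusted p = 0.0167). The second call was lost without WT replicate 1 (adjusted p = 0.0655), WT replicate 3 (0.0568) or K815R replicate 1 (0.0828). The list's median was 0.11 (WT), -0.01 (K815R) and -0.06 (libraries labelled K815Q), each against LacZ. The cytosolic aminoacyl-tRNA synthetases, 18 tested, gave 1 call in WT against LacZ, which is 5.56% of the list against 5.34% of all genes. The call was for Nars (0.16; adjusted p = 0.0394). It was lost without LacZ replicate 2 (0.212) or 3 (0.0680), without any WT library (0.0978, 0.129 and 0.0700) and without K815R replicate 3 (0.0599), and with the libraries labelled K815Q left out of the fit (0.0550). Against LacZ, 0 synthetases were called by edgeR or DESeq2 in K815R (0 with an unadjusted p under 0.05) or in the libraries labelled K815Q (1 with one). Of all 14063 tested genes 2.47% and 7.85% were called by edgeR in these groups, and 1938 and 3409 had an unadjusted p under 0.05. The synthetases' medians were 0.02 (WT), -0.02 (K815R) and -0.03 (libraries labelled K815Q).

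**Figure D4:**
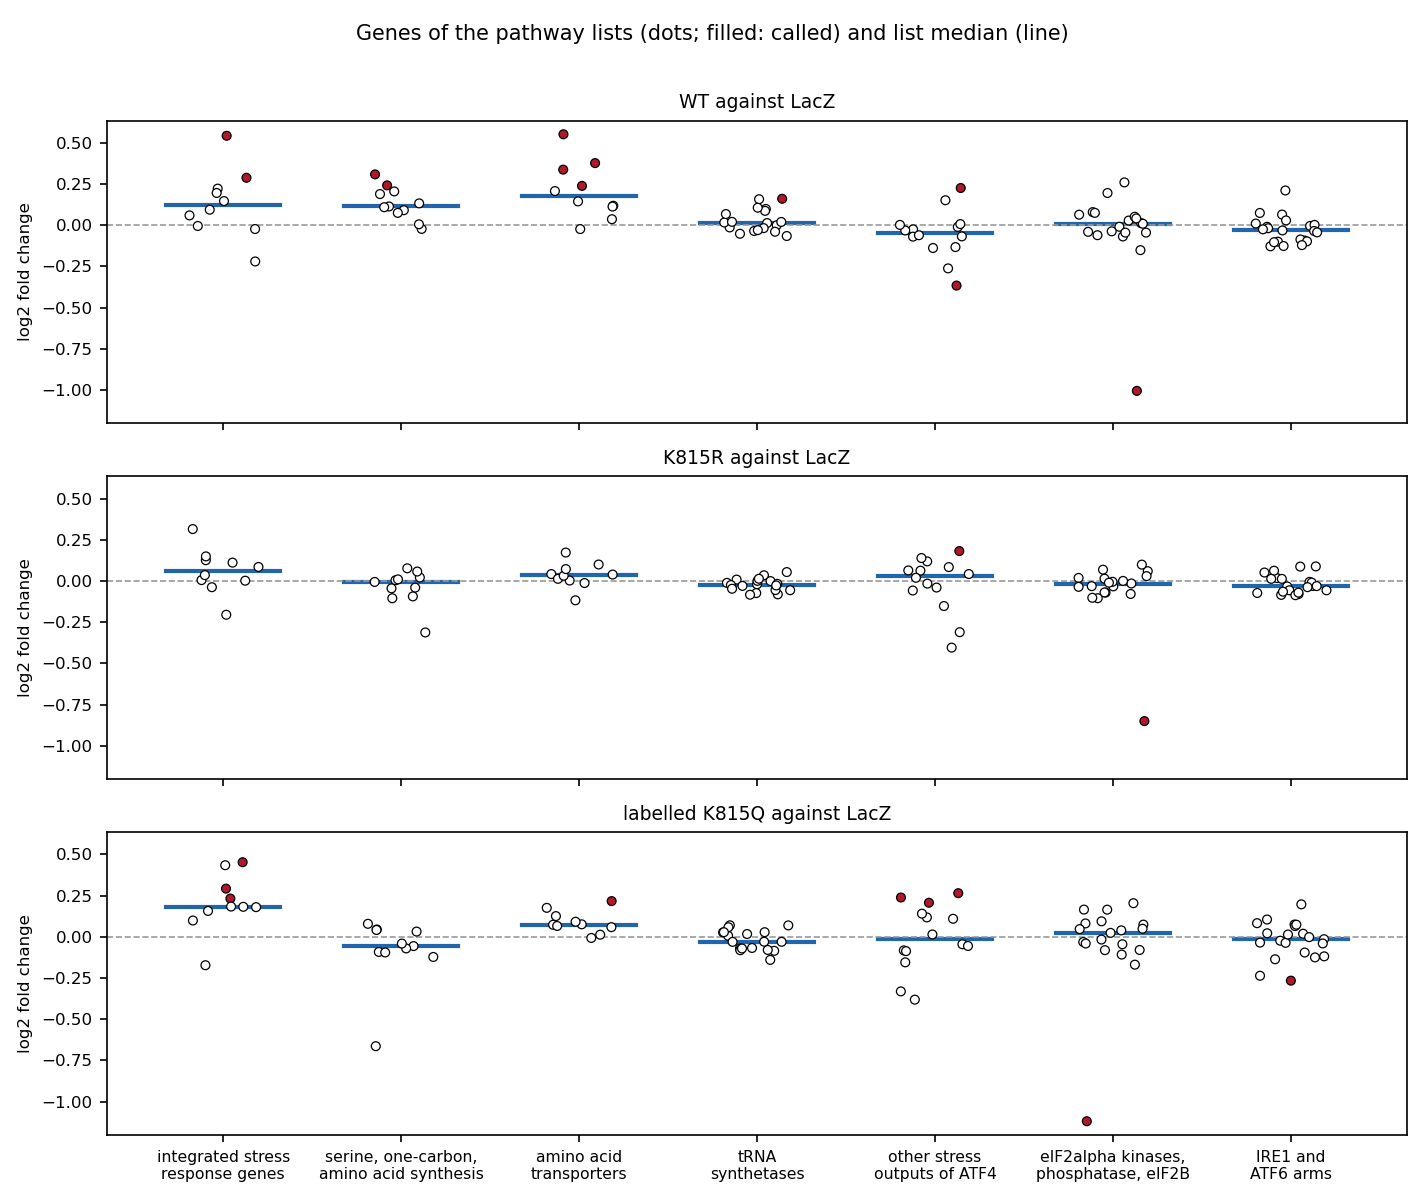
Log2 fold change against LacZ of each tested gene (points) by list, with the list's median (bar), for WT, K815R and K815Q. The transporters' median is 0.18 in WT and 0.04 in K815R, and the synthetases lie close to 0.

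The other stress outputs of ATF4, 14 tested, did not share a direction. Against LacZ, 1 was called higher and 1 lower in WT (Herpud1 and Cebpb), 1 higher in K815R (Eif4ebp1) and 3 higher in the libraries labelled K815Q (Cebpb, Herpud1 and Jdp2), with medians of -0.05, 0.03 and -0.02. Of all tested genes 5.34%, 2.47% and 7.85% were called in the same order. Eif4ebp1, an inhibitor of cap-dependent translation, was 154 ± 7.90 CPM (LacZ), 155 ± 1.67 (WT), 175 ± 3.73 (K815R) and 170 ± 4.26 (libraries labelled K815Q). Its K815R difference of 0.18 (adjusted p = 0.0397) was not called without LacZ replicate 1 (0.107) or 3 (0.207), WT replicate 1 (0.0505) or 2 (0.0521), K815R replicate 1 (0.141) or 3 (0.154), or all libraries labelled K815Q (0.0557). Herpud1, which serves degradation at the endoplasmic reticulum, rose from 111 ± 5.21 CPM in LacZ to 129 ± 2.53 in WT (log2 fold change 0.23; adjusted p = 0.00700) and 130 ± 5.08 where the label was K815Q (0.24; adjusted p = 0.00468). The WT call was lost without LacZ replicate 2 (0.0650). Cebpb, a partner of ATF4 on the composite element, was 92.9 ± 7.05 CPM (LacZ), 72.1 ± 6.45 (WT), 89.3 ± 3.43 (K815R) and 107 ± 3.13 (libraries labelled K815Q). Cebpb fell by 0.37 on the log2 scale in WT against LacZ (adjusted p = 9.65e-04), and it was higher in the libraries labelled K815Q than in WT by 0.57 (adjusted p = 4.09e-05). Both calls held without any 1 of the 12 libraries. Over LacZ the libraries labelled K815Q rose by 0.21 in Cebpb (adjusted p = 0.0429). That call was lost without LacZ replicate 1 (0.0836) or 3 (0.210), WT replicate 2 (0.0503), K815R replicate 3 (0.0505) or any 1 K815Q library (0.183, 0.0656 and 0.0709). K815R exceeded WT by 0.31 (adjusted p = 0.0112), a call lost without WT replicate 1 (0.0813) or K815R replicate 3 (0.0626). Jdp2, a repressor of the AP-1 family, was 24.3 ± 1.56 CPM (LacZ), 23.2 ± 2.17 (WT), 25.0 ± 0.411 (K815R) and 29.2 ± 1.45 (libraries labelled K815Q). It was higher in the last group than in LacZ by 0.26 (adjusted p = 0.0297), a call lost without LacZ replicate 2 (0.133) or 3 (0.0816), or K815Q replicate 1 (0.0635) or 3 (0.108). It was higher there than in WT by 0.33 (adjusted p = 0.0266), a call lost without WT replicate 1 (0.126) or 3 (0.166), or K815Q replicate 1 (0.0644) or 3 (0.105).

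Neighbouring stress programmes were compared in the same way. In the libraries labelled K815Q against LacZ, 7.85% of all tested genes were called and 4.98% were called lower. Of 21 tested genes of the IRE1 and ATF6 arms of the unfolded protein response, the called gene was Edem1, lower in the libraries labelled K815Q (-0.27; adjusted p = 0.0358). That call was lost without LacZ replicate 2 (0.0642) or 3 (0.184), or K815Q replicate 1 (0.203) or 3 (0.0827). The list's medians against LacZ were -0.03 (WT), -0.03 (K815R) and -0.01 (libraries labelled K815Q). Of 9 genes of the mitochondrial unfolded protein response, Hspa9, a mitochondrial chaperone, was called lower in the libraries labelled K815Q (-0.26; adjusted p = 0.00950), a call lost without LacZ replicate 2 (adjusted p = 0.0506) or K815Q replicate 1 (0.0962). Atf3 is also an immediate early gene, and of 19 other such genes the number called against LacZ was 2 (WT), 2 (K815R) and 5 (libraries labelled K815Q), against 5.34%, 2.47% and 7.85% of all genes, and the list's medians were 0.16, 0.16 and 0.10. Of these, 1 was lower in WT (Btg2, -0.24; adjusted p = 0.0214) and 2 were lower in the libraries labelled K815Q (Zfp36, -0.50; adjusted p = 7.51e-04, and Btg2, -0.24; adjusted p = 0.0201). Btg2 was not called in WT without LacZ replicate 1 (0.124), WT replicate 1 (0.0718) or WT replicate 2 (0.0850), nor in the libraries labelled K815Q without LacZ replicate 1 (0.0895) or 3 (0.0520) or K815Q replicate 1 (0.0945) or 3 (0.103). The others called were higher. Myc, a growth-promoting transcription factor, was among the called genes in all 3, with log2 fold changes of 0.28 (adjusted p = 0.0265), 0.30 (0.0242) and 0.33 (0.00731). Without LacZ replicate 3 Myc was called in none of them (0.156, 0.155 and 0.0565), and the WT call was also lost without any 1 WT library (0.0570, 0.0800 and 0.0847) and the K815R call without K815R replicate 2 (0.0582) or 3 (0.102).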

How the data were processed

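RNA-seq of 12 libraries was analysed from the deposited table of raw counts per gene. Per the submitters' processing notes, the authors' tools were Trimmomatic 0.39, HISAT2 2.2.1, HTSeq 0.6.1 and edgeR, with the rat build Rnor_6.0; the strand setting is not given in the sources used here. The 5 counter lines that name no gene were left out (11.7 to 12.9% of reads outside features and 25.6 to 26.9% not uniquely aligned). Genes of near-identical copies can lose reads to the second class. Genes were kept at a minimum count of 10 and a total of 15 (filterByExpr), which left 14063 of 32883. One model with 4 group means was fitted in edgeR 4.0.16 (R 4.3.3; TMM scaling, robust quasi-likelihood, 8 residual degrees of freedom) with Benjamini-Hochberg adjustment over all tested genes. SE is the log2 fold change over the square root of F. log2 CPM used a prior count of 2. The biological coefficient of variation was 0.0581. Replicates differed by more than sampling noise (chi-square per degree of freedom 4.78 to 9.29). Simulated data held 50 changed genes per size, drawn at random from all 14063 tested genes. In WT against LacZ, 23 were called at 1.25-fold, 33 at 1.5-fold and 46 at 2-fold, so small changes were often missed there. The rate at the members' own counts was not simulated. Alternatives were DESeq2 1.42.0, RLE and upper-quartile scaling, no filter or 10 counts in every library, a fit on the compared libraries alone, a replicate block, each library left out and, added after seeing the data, the libraries labelled K815Q left out.

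Members and gene lists were chosen with earlier results of these data known. All 10 members are named. From each other list, named genes are at most 3 with the smallest adjusted p among those called in the mean of the 3 other groups against LacZ, plus at most 2 in each pairwise comparison; the kinases Eif2ak1 to Eif2ak4 always. Likeness is Pearson r of log2 CPM over 12 libraries, for genes of at least 5 CPM, 5 per pattern. Motifs were searched in RefSeq promoters (GRCr8).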

Additional observations from a re-analysis of the deposited data

Results flagged for a closer look

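In 12 instances a gene differed directly between WT and another of the groups (edgeR, adjusted p under 0.05). They cover the members and the lists of other synthesis enzymes, transporters, synthetases, other stress outputs, kinases and immediate early genes. Cell type markers are not counted among them. Against WT, K815R gave 2 of 11 cardiomyocyte, 2 of 10 fibroblast and 1 of 2 tested blood cell markers. The libraries labelled K815Q gave 1 of 10 fibroblast markers. K815R differed from WT in Phgdh (log2 fold change -0.25), Aldh1l2 (-0.30), Slc7a11 (-0.67), Slc7a3 (-0.35), Cebpb (0.31) and Klf4 (0.35). The libraries labelled K815Q differed from WT in Aldh1l2 (-0.27), Slc7a11 (-0.48), Cebpb (0.57), Jdp2 (0.33), Klf4 (0.45) and Zfp36 (-0.38), and as their Kat6a counts were at the LacZ level, these are differences between labelled groups. Of the 12, Slc7a11 in K815R and Cebpb and Klf4 in the libraries labelled K815Q held without any 1 of the 12 libraries. The Aldh1l2 call in the libraries labelled K815Q held in 2 of the 12 leave-outs, and was lost with DESeq2 (adjusted p = 0.0724). Slc7a3 in K815R held in 7 of 12 and was lost with DESeq2 (0.0636). Klf4 in K815R was lost without WT replicate 2 (0.113) or 3 (0.108) or K815R replicate 1 (0.117), and Zfp36 without WT replicate 2 (0.0551) or 3 (0.154) or K815Q replicate 1 (0.132).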

How the results depend on the processing

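Of 1360 refits of a member's log2 fold change, 1309 kept the status of the call, 26 lost the call, 25 gained it and 0 reversed a called value. Of the 1309, 33 changed sign where neither fit made a call. Without the filter on low counts 1 member was called in K815R against LacZ, 6 in K815Q against LacZ, 2 in K815Q against WT, 3 in K815R against K815Q and 7 for any difference. Calls over all genes rose too, from 348 to 600 in K815R against LacZ and from 151 to 423 in K815Q against WT. They rose from 51 to 307 in K815R against K815Q and from 1143 to 2036 for any difference. The total for K815Q against LacZ without the filter is not given here. Totals over all genes with 1 library left out are given below. Leaving out 1 library gave 0 to 3 called members in WT against LacZ, 0 to 0 in K815R against LacZ, 3 to 6 in K815Q against LacZ, 0 to 1 in K815R against WT, 0 to 1 in K815Q against WT, 0 to 1 in K815R against K815Q, 0 to 5 in the mean and 2 to 5 for any difference. With the libraries labelled K815Q left out, chosen after seeing the data, the mean gave 1 called member and 571 called genes. The cause was not tested. Limiting the fit to the libraries compared was not run for the mean and any difference, which use all groups.

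In deviations from the group means, same-numbered libraries of different groups had r of -0.13 to 0.12 (1 of 18 pairs over 0.1). Pairs with other numbers had r of -0.13 to 0.15 (3 of 36 over 0.1). With 3 libraries a group these values cannot show whether same-numbered cultures shared a preparation. With the replicate number as a block, 1 member was called in K815R against K815Q (Trib3, adjusted p = 0.0343) and 4 in K815Q against LacZ (Chac1 added, 0.0177).

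Over all genes, leaving out 1 library took WT against LacZ from 751 calls to as few as 381, K815R against LacZ from 348 to 185, K815Q against LacZ from 1104 to 364, K815R against WT from 309 to 125, K815Q against WT from 151 to 50, K815R against K815Q from 51 to 7 or up to 95, the mean from 936 to 354 and any difference from 1143 to 662. Without the filter, calls were 600 in K815R against LacZ, 553 in K815R against WT, 423 in K815Q against WT, 307 in K815R against K815Q and 2036 for any difference. With the block, K815Q against WT gave 232 and K815R against K815Q 86, which was 84 with the compared libraries alone and 105 with DESeq2. Depth limits Atf3 most, with 176 counts in its lowest library.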
